A study of Mus musculus with 6 samples.

Results

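The 35 genes described here encode the machines that find faulty mRNAs, shorten poly(A) tails and degrade RNA from its 3' end. They were chosen by name, and each was matched by its Ensembl identifier to a GENCODE vM21 symbol, so that all 35 of 35 were found among the 46983 genes in the files. The group holds 9 genes of nonsense-mediated decay (NMD), 14 genes of deadenylation (the CCR4-NOT complex, PAN2-PAN3 and PARN) and 12 genes of the RNA exosome and its cytoplasmic SKI helper. All 35 passed the filter on low counts and were among the 12748 genes tested.

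The study sequenced total RNA, after removal of rRNA, of naive CD4 T cells from lymph nodes of male mice, sorted as TCRb+, CD4+, CD62L+ and CD44-. The 2 control libraries came from Cmtr1 fl/fl mice without CD4-Cre, and the 4 libraries labelled Cmtr1 cKO came from Cmtr1 fl/fl mice that carry CD4-Cre, so the floxed allele is shared by both groups. CD4-Cre acts in thymocytes as they reach the CD4 and CD8 double-positive stage, so the deletion is that of the whole alpha-beta T lineage and precedes the naive stage. The sources used here do not state the age of the mice, and the labels do not say that each library came from a separate mouse, so each p-value reflects only how these libraries spread, which may be technical.

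In NMD, the helicase UPF1 is recruited to mRNAs whose translation ended too early, is phosphorylated by the kinase SMG1 and hands the mRNA to SMG5 and to the endonuclease SMG6. Deadenylation is the usual opening step of mRNA turnover: PAN2-PAN3 trims long tails and CCR4-NOT removes most of the rest. The exosome is a barrel of inactive subunits with a cap of RNA-binding subunits and the attached nucleases DIS3 and EXOSC10. In T cells these pathways set the lifetime of cytokine and activation mRNAs, and CCR4-NOT is recruited by the BTG and TOB proteins of quiescent lymphocytes. CMTR1 is the methyltransferase that adds a ribose methyl group to the nucleotide next to the cap of new RNAs.

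Gene counts per library ran from 9513874 (Cmtr1 cKO 3) to 11949838 (control 1), and the 35 genes took 0.369% to 0.477% of them. The targeted gene, Cmtr1 (chromosome 17, 29660595 to 29705979, GRCm38), had 11.2 and 11.4 CPM (counts scaled to library size) in control 1 and 2, against 16.0, 19.8, 14.6 and 7.57 in Cmtr1 cKO 1 to 4. This does not check the labels, because 36.3% of its annotated exon bases are shared with Gm28043 or Gm28052 and the sources used here do not say which exon Cre removes. All directions below are those of the libraries as labelled. Of uniquely mapped reads, 37.2% and 34.0% lay outside annotated exons in the controls and 52.3%, 51.6%, 46.7% and 38.0% in Cmtr1 cKO 1 to 4, so Cmtr1 cKO 4 lay near the controls. The group means were 35.6% ± 2.3 (SD, n = 2) and 47.2% ± 6.6 (SD, n = 4), and the exact permutation test (two-sided) gave p = 0.133, where the smallest possible p is 0.0667. The naive CD4 T cell markers were present, with a summed level of 6005 to 6195 CPM in the controls and 5567 to 6568 CPM in the Cmtr1 cKO libraries. Of these 9 markers 1 was called, Ccr7, which was lower. Markers of CD8 T cells summed to 23.6 to 28.7 CPM in the controls and 17.0 to 21.3 CPM in Cmtr1 cKO, those of B cells to 27.9 to 36.5 and 18.7 to 37.1 CPM, and those of myeloid cells to 4.18 to 16.4 and 2.84 to 4.34 CPM. Markers of regulatory T cells (Foxp3, Il2ra and Ikzf2) summed to 87.6 to 129.75 CPM in the controls and 104.2 to 144.9 CPM in Cmtr1 cKO. The cytotoxic genes Prf1 and Klrd1 and the activation marker Cd44, whose protein the sort selected against, were called lower. The part of these markers in the results below was not tested.

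Between the genotypes 3 of the 35 genes rose and 0 fell: Pan2, Smg6 and Smg5. Genes were tested by quasi-likelihood in edgeR with Benjamini-Hochberg adjustment across the 12748 genes, and an adjusted p under 0.05 is a call. Among the genes tested 11.4% were called, 4.66% higher and 6.77% lower. The 3 of 35 (8.57%) are a share below that of all genes for calls in either direction and above that for higher calls. At an unadjusted p under 0.05, 9 of the 35 were higher and 1 was lower, where 30.9% of all genes passed, 15.1% higher and 15.7% lower. In edgeR the log2 fold change was above 0 for 29 of 35 (82.9%), against 6368 of the 12748 genes tested, and the median was 0.11, against -0.00047 for all genes. Control and Cmtr1 cKO libraries did not overlap for 13 of the 35, of which 11 (31.4%) were higher and 2 (5.71%) lower, against 18.2% and 20.8% of all genes (39.0% in either direction). The summed level of the 35 was 3889 and 3990.2 CPM in control 1 and 2, against 4509, 4441, 4363 and 4226 in Cmtr1 cKO 1 to 4. Fewer cells of a type and less RNA per cell cannot be told apart in such bulk samples.

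**Figure D1:**
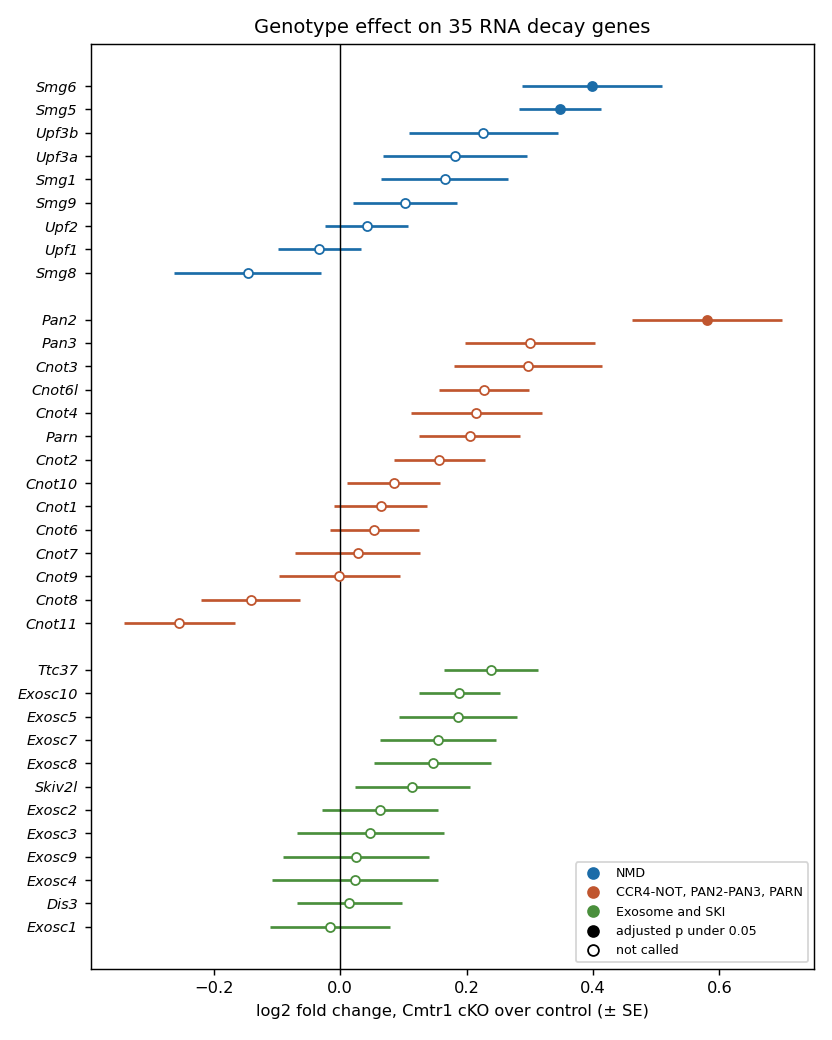
The log2 fold change of each of the 35 genes (x axis, Cmtr1 cKO over control, bars are ± SE) by machine; filled points passed an adjusted p under 0.05. Pan2 lies highest at 0.58 and Cnot11 lowest at -0.26, and 29 of the 35 lie above 0.

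The annotated starts of the 3 genes that rose are shown first. The base at the annotated start was G in Smg5 and Smg6 and T in Pan2. The bases before it lie outside an RNA that begins there, and a link between these letters and CMTR1 was not tested. Each window holds the 100 bases before and the 20 bases from the annotated transcription start (RefSeq, GRCm38.p6), 5' to 3' on the gene's strand, with capitals for matches to the motifs named below. They are Smg5 at chr3:88336160-88336279 (plus strand), Smg6 at chr11:74925754-74925873 (plus strand) and Pan2 at chr10:128303235-128303354 (plus strand).
Smg5: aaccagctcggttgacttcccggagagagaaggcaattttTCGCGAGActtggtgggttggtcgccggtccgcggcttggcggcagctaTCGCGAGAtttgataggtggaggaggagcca
Smg6: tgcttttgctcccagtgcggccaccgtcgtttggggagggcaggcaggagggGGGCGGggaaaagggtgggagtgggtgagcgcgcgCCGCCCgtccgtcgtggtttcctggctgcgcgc
Pan2: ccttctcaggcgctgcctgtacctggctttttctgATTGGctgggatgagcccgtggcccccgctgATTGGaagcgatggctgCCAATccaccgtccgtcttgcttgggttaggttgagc

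The 3 windows share no motif of the set searched. Smg5 holds TCGCGAGA 60 and 11 bases before its start, Smg6 holds the GC box GGGCGG on both strands, and Pan2 holds the CCAAT box on both strands. RefSeq promoters of 30 of the 35 genes were in the table used, each 300 bases long (250 before and 50 after the start, the promoter listed first where a gene had several). Cnot1, Cnot7, Exosc4, Exosc9 and Skiv2l had no entry. Motifs were searched on both strands, and the set was chosen after these letters had been seen. TCGCGAGA was in 4 of 30 (Smg5, Dis3, Exosc10 and Upf3b), which is 13.3%, against 1.08% of the 27025 promoters in the table. These 27025 include promoters of genes too low to be tested here, while all 30 genes passed the filter on low counts. A comparison with promoters of expressed genes alone was not made, so the shares do not show a trait particular to the 30. GGGCGG was in 23 of 30 (76.7% against 35.9%), the NRF1 core GCATGCGC in 7 (23.3% against 2.80%) and the ETS site CCGGAAG in 6 (against 9.12%). CCAAT was in 12 (40% against 37.9%), the YY1 site AAGATGGCG in 3 (against 1.49%) and the TATA box TATAAA in 0 (against 14.2%). The base at the annotated start was G in 19 of the 30, A in 5, C in 4 and T in 2, and it was G in 35.2% of all promoters. A start of the kind that marks ribosomal protein mRNAs, C followed by 4 bases that are each C or T, was found in 1 of 30, Cnot10 (3.33% against 2.49%).

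Among the NMD genes 2 of 9 (22.2%) rose, where 4.66% of all genes rose, and both are of the step that follows UPF1 phosphorylation. Smg5 (chromosome 3, 88336260 to 88362338, GRCm38), the adaptor that binds phosphorylated UPF1 and recruits phosphatase and decay enzymes, had 149 and 146 CPM in control 1 and 2, against 189, 191, 187 and 183 in Cmtr1 cKO 1 to 4. Every Cmtr1 cKO library lay above both controls and the 4 lay close together. The log2 fold change was 0.35 ± 0.06 (SE), 1.27-fold, with adjusted p = 0.00841. Smg6 (chromosome 11, 74925823 to 75164448), the endonuclease that cuts near the premature stop codon, had 101 and 108 CPM against 156, 147, 135 and 113 CPM. The groups did not overlap, but Cmtr1 cKO 4 lay only just above control 2. Its log2 fold change was 0.40 ± 0.11 (SE), 1.32-fold, with edgeR adjusted p = 0.0408. The order of the 4 libraries in Smg6 was the order of their reads outside exons, and leaving out Cmtr1 cKO 1, 2 or 3 ended its call (0.34, 0.37 and 0.42, adjusted p = 0.0800, 0.0907 and 0.0854).

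The other NMD genes did not pass the test. Upf1, the helicase at the centre of the pathway, showed a log2 fold change of -0.03 ± 0.07 (SE), and Upf2, which bridges UPF1 and UPF3, had 0.04 ± 0.07 (SE). Smg1, the kinase, was the most abundant NMD gene in CPM and per length, at 839 and 918 CPM in control 1 and 2, against 1086, 1006.5, 939 and 910.0 in Cmtr1 cKO 1 to 4. Its control 2 lay above Cmtr1 cKO 4, and its log2 fold change was 0.17 ± 0.10 (SE). Smg8 and Smg9 encode partners that restrain SMG1. Smg8 had the lowest log2 fold change of the 9, -0.15 ± 0.12 (SE), at 24.7 and 25.0 CPM in control 1 and 2, against 20.4, 20.6, 23.2 and 25.6 in Cmtr1 cKO 1 to 4, with Cmtr1 cKO 4 above both controls. Smg9 had 0.10 ± 0.08 (SE).

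Upf3a and Upf3b are paralogs that connect NMD to exon junction complexes. Upf3a had 22.1 and 28.6 CPM in control 1 and 2, against 29.9, 29.1, 27.3 and 28.4 in Cmtr1 cKO 1 to 4. Upf3b had 35.2 and 29.2 CPM against 43.5, 38.0, 34.6 and 34.9 CPM. In Upf3a the 2 controls lay farther apart than the 4 Cmtr1 cKO libraries did, and in both genes the groups overlapped. The count ratio of Upf3a to Upf3b was 0.628 and 0.977 in the controls and 0.687 to 0.813 in Cmtr1 cKO. The log2 ratio differed by -0.04 between the groups (exact two-sided permutation test, p = 0.933, 0.933 after adjustment over 3 pairs of paralogs), less than the spread between the controls.

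Levels of different genes are compared here only as CPM per kilobase of annotated exon, as means of the 2 controls. The NMD order was Smg1 (36.6), Upf1 (30.4), Smg5 (21.2), Upf2 (19.8), Smg9 (14.97), Smg6 (12.4), Upf3b (8.06), Smg8 (7.72) and Upf3a (4.32). Upf3b and Smg8, next to each other in that order, differed by less than the spread between the 2 controls of Upf3b. The scale depends on the length used: of the annotated exon bases of Upf3a 64.9% lie outside its protein-coding transcripts, and per kilobase of these transcripts Upf3a had 12.3 and Smg8 7.72. Per kilobase of protein-coding transcripts Smg5 (33.1) also lay above Upf1 (30.4), and Smg9 (23.2) above Upf2 (21.0).

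**Figure D2:**
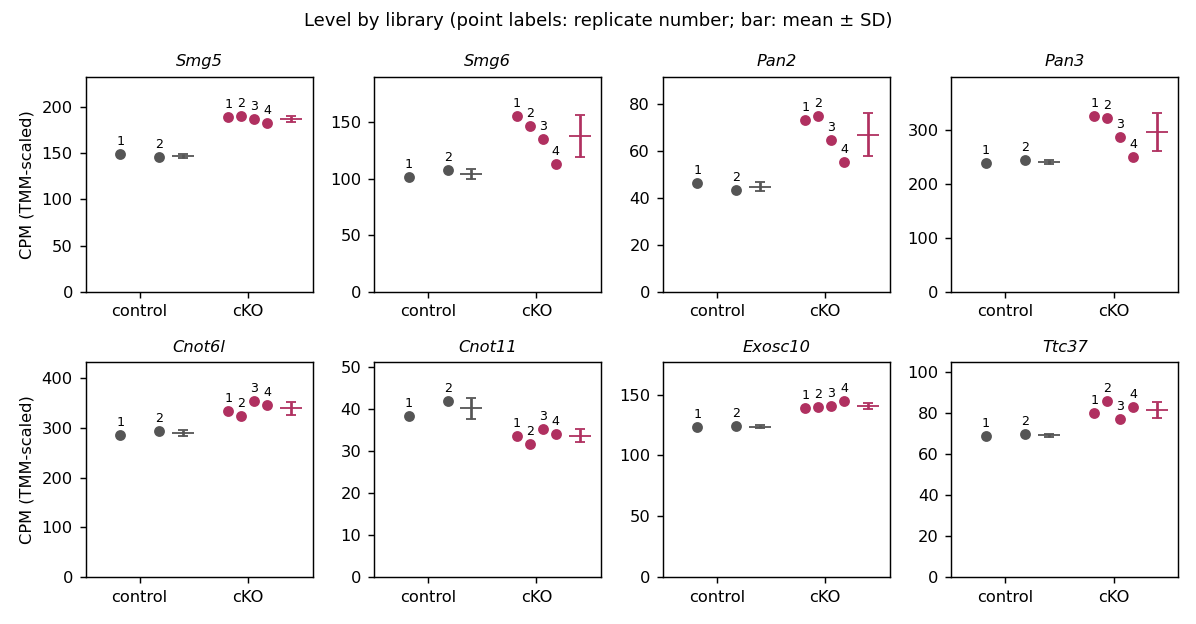
CPM (y axis, from 0) of 8 genes in the 2 control and 4 Cmtr1 cKO libraries, numbered by replicate, with the mean ± SD of each group beside the points. Smg5, Cnot6l, Exosc10 and Ttc37 have tight Cmtr1 cKO groups above the controls, while Smg6, Pan2 and Pan3 have their lowest Cmtr1 cKO value in replicate 4.

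Of the 14 deadenylation genes 1 (7.14%) rose and 0 fell, where 4.66% of all genes rose and 6.77% fell. Pan2 (chromosome 10, 128303335 to 128321358), the catalytic subunit that trims long tails, had 46.1 and 43.2 CPM in control 1 and 2, against 72.9, 74.8, 64.4 and 55.1 in Cmtr1 cKO 1 to 4. All 4 lay above both controls, with Cmtr1 cKO 4 nearest to them. It had the largest log2 fold change of the 35, 0.58 ± 0.12 (SE), with edgeR adjusted p = 0.0121. Pan3, the adaptor that places PAN2 on the tail, had 238 and 243 CPM against 326, 321, 287 and 250.05 CPM, in the same order of libraries as their reads outside exons. Its log2 fold change, 0.30 ± 0.10 (SE), was not called (edgeR adjusted p = 0.0773). Pan2 had the lowest level per length of the 14, 5.27 CPM per kilobase of exon, and Pan3 had 16.1. Parn, which trims short poly(A) tails of non-coding RNAs and mRNAs, showed a log2 fold change of 0.21 ± 0.08 (SE, adjusted p = 0.112), and its groups did not overlap.

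The deadenylases of CCR4-NOT come as paralogs of a CCR4 type (Cnot6, Cnot6l) and a CAF1 type (Cnot7, Cnot8). Cnot6l had 286 and 293 CPM in control 1 and 2, against 334, 323, 354 and 346 in Cmtr1 cKO 1 to 4, without overlap. At 0.23 ± 0.07 (SE) on the log2 scale it missed the threshold (edgeR adjusted p = 0.0602) and passed it in 6 of 14 alternative fits. Cnot6 had 164 and 165 CPM against 159, 172, 176 and 177 CPM, with overlap and a log2 fold change of 0.05 ± 0.07 (SE). The count ratio of Cnot6 to Cnot6l was 0.573 and 0.563 in the controls and 0.475, 0.531, 0.496 and 0.512 in Cmtr1 cKO, lower in 4 of 4. The difference of -0.17 in the log2 ratio gave p = 0.0667, the smallest that an exact permutation test of 2 against 4 libraries can give, and 0.2 after adjustment over the 3 pairs. It ran from -0.20 to -0.15 with 1 library left out and was -0.17 on unstranded counts.

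Cnot7 had 67.6 and 57.3 CPM in control 1 and 2, against 64.9, 70.3, 62.6 and 57.0 in Cmtr1 cKO 1 to 4, and the groups overlapped. Cnot8 had 61.8 and 58.4 CPM against 51.3, 55.0, 57.6 and 54.3 CPM, all below both controls, but at -0.14 ± 0.08 (SE) on the log2 scale it was not called (edgeR adjusted p = 0.243). The log2 ratio of Cnot7 to Cnot8 was 0.17 higher in Cmtr1 cKO (exact permutation p = 0.267, 0.4 adjusted over 3 pairs). Of the words of 50 bases in Cnot8 transcripts 7.82% also occur in another gene's transcript, as do 8.83% in Cnot3 and 4.28% in Cnot1. Reads that map to several places are in no gene's count, but how many reads of these genes were lost in this way was not tested. The share was at most 1.73% for the other 32 genes.

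Structural subunits of CCR4-NOT were not called in either direction. Cnot1, the scaffold, showed a log2 fold change of 0.06 ± 0.07 (SE). Cnot2 and Cnot3 form the NOT module. Cnot2 had the highest level of the 14 per kilobase of annotated exon, 37.0 CPM in the controls, but per kilobase of protein-coding transcripts Cnot1 was highest, with 55.8 against 42.1 for Cnot2. Cnot2 stood at 155 and 146 CPM in control 1 and 2 and 171, 176, 169.7 and 156 CPM in Cmtr1 cKO. Cnot2 was higher in every Cmtr1 cKO library, by 0.16 ± 0.07 (SE) on the log2 scale (edgeR adjusted p = 0.164). Cnot3 had 0.30 ± 0.12 (SE, adjusted p = 0.114). Cnot4, a ubiquitin ligase attached to the complex, had 0.22 ± 0.10 (SE), and Cnot9, which binds recruited proteins, had -0.0016 ± 0.0955 (SE). Cnot10 and Cnot11 form a module of their own, and their values lay on opposite sides of 0. Cnot11 had 38.4 and 41.9 CPM in control 1 and 2, against 33.6, 31.6, 35.2 and 34.1 in Cmtr1 cKO 1 to 4, without overlap. Its log2 fold change, the lowest of the 35, was -0.26 ± 0.09 (SE, edgeR adjusted p = 0.0791), and Cnot10 had 0.08 ± 0.07 (SE).

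Of the 12 exosome and SKI genes 0 were called by edgeR, where 11.4% of all genes were called. An unadjusted p under 0.05 was found for 2 (Exosc10 and Ttc37), where 30.9% of all genes passed. DESeq2 also called 0. Their log2 fold changes lay between -0.02 and 0.24, with standard errors of 0.06 to 0.13, and 11 of 12 were above 0. The catalytic subunits differed in their values. Exosc10, the nuclear nuclease, had 123 and 124 CPM in control 1 and 2, against 139, 139.9, 141 and 145 in Cmtr1 cKO 1 to 4. All 4 lay above both controls in a tight group, and the log2 fold change was 0.19 ± 0.06 (SE, edgeR adjusted p = 0.0766). Dis3, the nuclease at the base of the barrel, had 0.01 ± 0.08 (SE). Exosc10 had the highest level of the 12 per kilobase of annotated exon, 34.4 CPM, and Dis3 had 5.82. Per kilobase of protein-coding transcripts Exosc8 (44.9) and Exosc10 (44.4) were highest and Dis3 (8.77) was lowest.

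The cap subunits Exosc1, Exosc2 and Exosc3 had log2 fold changes of -0.02, 0.06 and 0.05. Exosc1, the lowest of the 12, had 27.6 and 29.2 CPM in control 1 and 2, against 27.9, 28.8, 29.6 and 26.2 in Cmtr1 cKO 1 to 4, so the groups overlapped. The barrel subunits Exosc4, Exosc5, Exosc7, Exosc8 and Exosc9 had 0.02, 0.19, 0.16, 0.15 and 0.02. Of these Exosc7 was without overlap, at 26.8 and 26.4 CPM against 29.1, 31.2, 28.4 and 29.9 CPM. It had the lowest level per kilobase of annotated exon of the 12 genes, 4.43, but 80.8% of its annotated exon bases lie outside its protein-coding transcripts, and per kilobase of these it had 23.1.

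The SKI complex feeds cytoplasmic RNA to the exosome. Ttc37, its scaffold, had the highest log2 fold change of the 12, 0.24 ± 0.07 (SE, edgeR adjusted p = 0.0569), at 68.5 and 69.4 CPM in control 1 and 2, against 79.8, 85.6, 77.0 and 82.8 in Cmtr1 cKO 1 to 4. The groups did not overlap. Skiv2l, the SKI helicase, had 0.11 ± 0.09 (SE), with overlap.

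Calls were also made with each library left out. Without control 1 or control 2, 1 control library is left, which is assumed to vary like the Cmtr1 cKO libraries, since these alone then give the spread. Such a fit called 0 of the 35 genes and 1.95% and 1.48% of all genes. The log2 fold changes without control 1 and without control 2 were 0.64 and 0.55 for Pan2, 0.37 and 0.35 for Smg5, and 0.36 and 0.46 for Smg6. Without Cmtr1 cKO 1, 2 or 3 it called 2 genes, Smg5 and Pan2 each time, where 5.88%, 5.25% and 4.78% of all genes were called. Without Cmtr1 cKO 4 it called 10 higher (Cnot2, Cnot3, Cnot4, Cnot6l, Exosc10, Pan2, Pan3, Smg5, Smg6 and Ttc37) and 1 lower (Cnot11), while the share of all genes called went to 30.8%. With all 6 libraries, the 3 genes were called with DESeq2 size factors and on unstranded counts (all genes 11.3% and 8.89%), and 5 of the 35 were called by upper quartile scaling (11.3%), DESeq2 (11.5%) and without the filter (9.11%). Sample quality weights called 10 of the 35 and 24.9% of all genes, and a fit that blocks on replicate number called 15 and 38.0%. The labels do not say that these numbers pair the libraries.

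When the outside-exon share entered the fit as a covariate, 2 of the 35 were called, Smg5 and Cnot6l. Smg5 showed a log2 fold change of 0.30 (edgeR adjusted p = 0.00952) and Cnot6l 0.29 (adjusted p = 0.0105), where 5.22% of all genes were called. Pan2 and Smg6 had 0.22 and 0.07 there and were not called (adjusted p = 0.195 and 0.732). Pan3 had -0.00082, Cnot3 -0.05 and Cnot4 -0.07. The covariate moves with genotype across the 6 libraries, so this fit separates them only in part.

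**Figure D3:**
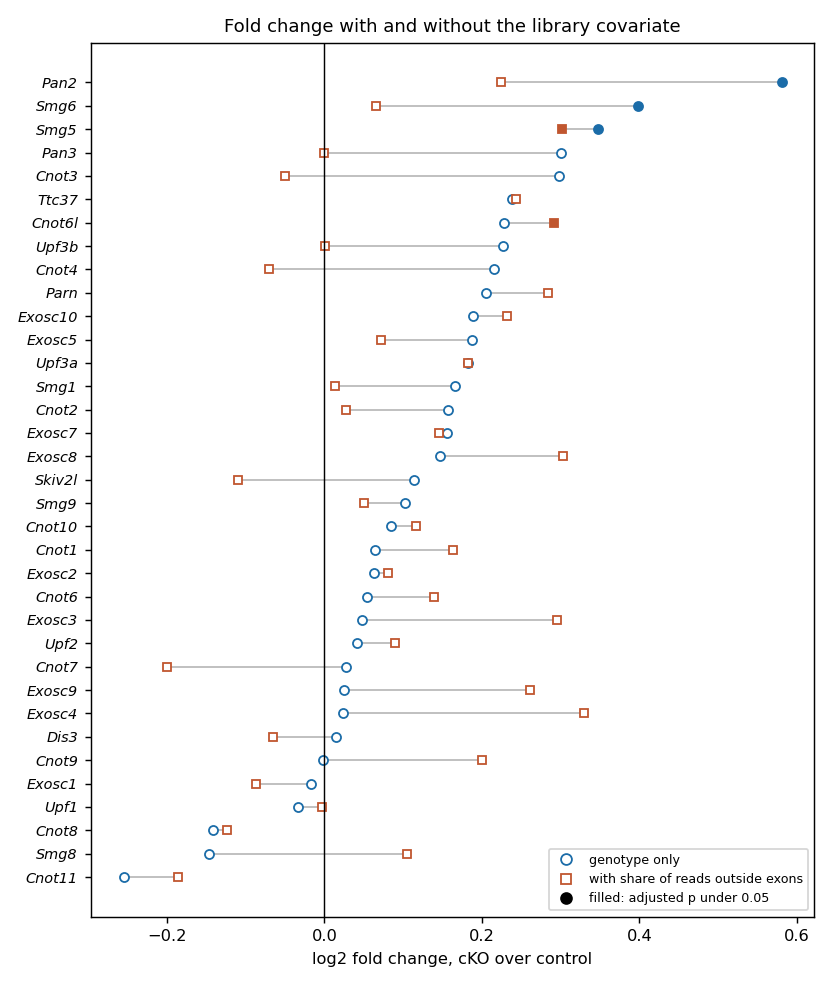
The log2 fold change of each of the 35 genes (x axis) fitted on genotype alone (circles) or with the outside-exon covariate added (squares); filled symbols passed an adjusted p under 0.05. Smg5 and Ttc37 stay near their values, Pan2 moves from 0.58 to 0.22 and Pan3 from 0.30 to near 0.

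The annotated exon content of the 35 genes was also set beside their log2 fold changes, as a description only. Some annotated transcripts are of a type other than protein-coding, such as those that retain introns, and their bases count as exon. These other types were not told apart. For the 35 genes the median share of exon bases outside protein-coding transcripts was 35.5%, against 17.2% for the 10521 protein-coding genes tested. Across the 35 genes this share and the log2 fold change had a Spearman correlation of 0.49, and across the 10521 genes it was 0.19. Genes are not independent replicates, and the fold changes of all genes share the same 6 libraries. Of the 6 genes with a share under 10% (Upf1, Upf2, Smg8, Cnot8, Cnot11 and Exosc4) 4 had a log2 fold change below 0 and their median was -0.09, while 2 of the other 29 were below 0 and their median was 0.16. Among all protein-coding genes tested these medians were -0.08 and 0.02, and the 10% boundary was chosen after the values were seen. Total exon length had a Spearman correlation of 0.61 with the log2 fold change across the 35 and 0.18 across the 10521. For Pan2, Smg5 and Smg6 the share was 47.5%, 36.1% and 30.2%. With the covariate the correlation of this share with the log2 fold change was 0.16 across the 35 and 0.036 across the 10521. Whether reads from retained introns contributed to the counts was not tested.

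**Figure D4:**
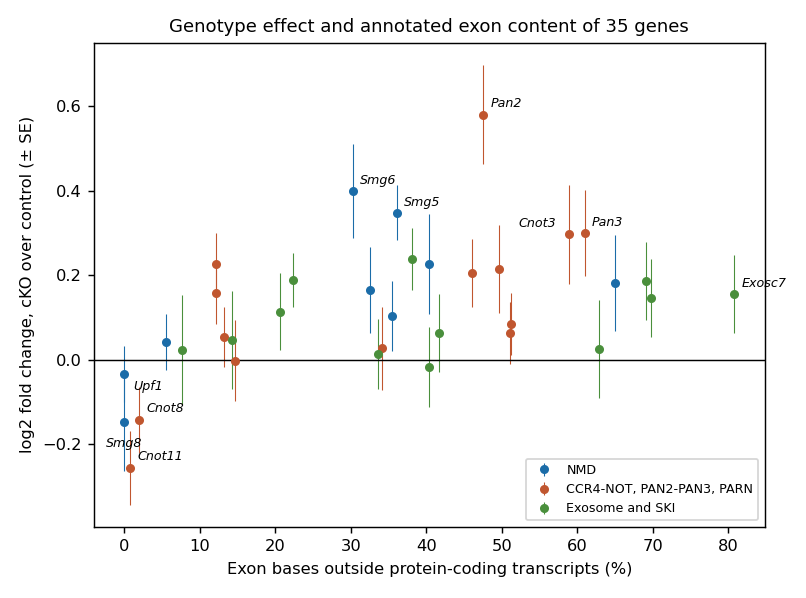
The log2 fold change (y axis, ± SE) of the 35 genes against the percentage of their annotated exon bases that lie outside protein-coding transcripts (x axis), coloured by machine. Of the 6 genes below 0, Upf1, Smg8, Cnot8 and Cnot11 have shares under 10%, while Exosc1 has 40.3% and Cnot9 14.6%.

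Other genes of the 3 pathways were read from lists of partners and cofactors. Of 36 tested partners of deadenylation 4 fell and 1 rose, with a median log2 fold change of -0.11. Of all genes tested 6.77% fell and 4.66% rose. The 4 that fell include proteins that bring CCR4-NOT to mRNA or bind its substrate. Pabpc1, the main cytoplasmic poly(A)-binding protein, had 864 and 941 CPM in control 1 and 2, against 494, 493, 610.0 and 715 in Cmtr1 cKO 1 to 4. Every Cmtr1 cKO library was lower, with replicate 4 nearest to the controls, and the log2 fold change was -0.64 ± 0.14 (SE, edgeR adjusted p = 0.0165). Btg1, an antiproliferative protein of quiescent lymphocytes that binds CAF1 deadenylases, had 1065 and 1048.5 CPM against 731, 674, 821 and 810.4 CPM. The groups lay well apart, at -0.48 ± 0.10 (SE, edgeR adjusted p = 0.0124). Tob2, of the same family, had 62.8 and 67.8 CPM in the controls, above the 49.4, 46.0, 55.8 and 55.9 CPM of the other group, and fell by 0.33 on the log2 scale (SE 0.09). Tnks1bp1, a protein found with CCR4-NOT, fell by 0.34 (SE 0.09), from 37.0 and 41.7 CPM to 31.8, 31.0, 29.8 and 31.2 CPM. Pabpn1, the nuclear poly(A)-binding protein, rose by 0.68 ± 0.17 (SE), from 11.89 and 13.2 CPM to 24.2, 20.8, 20.1 and 15.4 CPM. With the outside-exon covariate none of these 5 was called, and Pabpc1, Btg1, Tob2, Tnks1bp1 and Pabpn1 had -0.21, -0.32, -0.14, -0.33 and 0.24. Tob2, Tnks1bp1 and Pabpn1 were not called when Cmtr1 cKO 1, 2 or 3 was left out, while Pabpc1 and Btg1 stayed called.

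Of 24 tested partners of NMD 4 rose and 0 fell, with a median of 0.05. Of all genes tested 4.66% rose and 6.77% fell. The log2 fold change was above 0 for 15 of the 24 and below 0 for 9. Hbs1l, of ribosome rescue, rose by 0.40 ± 0.09 (SE), from 53.7 and 47.5 CPM to 70.2, 70.8, 65.9 and 59.6 CPM. Acin1, a splicing factor that associates with exon junction complexes, rose by 0.39 ± 0.08 (SE), from 382 and 385 CPM to 521, 536, 473 and 473 CPM. Pnn, another such factor, rose by 0.32 ± 0.09 (SE), from 104 and 101 CPM to 140.3, 138, 122 and 112 CPM, with Cmtr1 cKO 4 nearest to the controls. Sec13, a coat and nuclear pore protein, rose by 0.29 ± 0.08 (SE), from 62.4 and 71.1 CPM to 80.1, 79.5, 78.9 and 88.5 CPM, with Cmtr1 cKO 4 farthest from them. In all 4 genes the groups did not overlap. With that covariate Acin1 and Sec13 stayed called (0.26 and 0.43), while Hbs1l and Pnn were not (0.18 and 0.06). Of 22 tested partners of the exosome 5 rose and 0 fell, beside the same shares of all genes, with a median of 0.07. The log2 fold change was above 0 for 13 of the 22 and below 0 for 9. Rbm26, an RNA-binding protein linked to nuclear exosome targeting, rose by 0.47 ± 0.10 (SE), from 125 and 119 CPM to 183, 179.8, 171 and 141 CPM. Nvl, a nucleolar ATPase that works with the exosome helicase, rose by 0.46 ± 0.09 (SE), from 99.0 and 89.7 CPM to 133, 137, 136 and 112 CPM. Zfc3h1, of the poly(A) tail exosome targeting complex, rose by 0.44 ± 0.12 (SE), from 175 and 175 CPM to 268, 259, 235 and 187 CPM. In these 3 genes the groups did not overlap, and of the Cmtr1 cKO libraries replicate 4 was the lowest. Zcchc7, of the TRAMP complex, rose by 0.30 ± 0.09 (SE), from 162 and 159 CPM to 213, 207, 195 and 175 CPM, again with Cmtr1 cKO 4 nearest. The GTP-binding protein Gtpbp1 rose by 0.28 ± 0.07 (SE), from 152 and 155 CPM to 181, 183, 183 and 199 CPM, with Cmtr1 cKO 4 farthest. Gtpbp1 alone of these 5 stayed called with the covariate (0.38). Sec13, Hbs1l, Pnn, Zcchc7 and Zfc3h1 were not called without Cmtr1 cKO 1, 2 or 3, nor was Gtpbp1 without Cmtr1 cKO 2 or 3, and in all 3 lists together edgeR called 0 partners without control 1 or control 2.

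**Figure D5:**
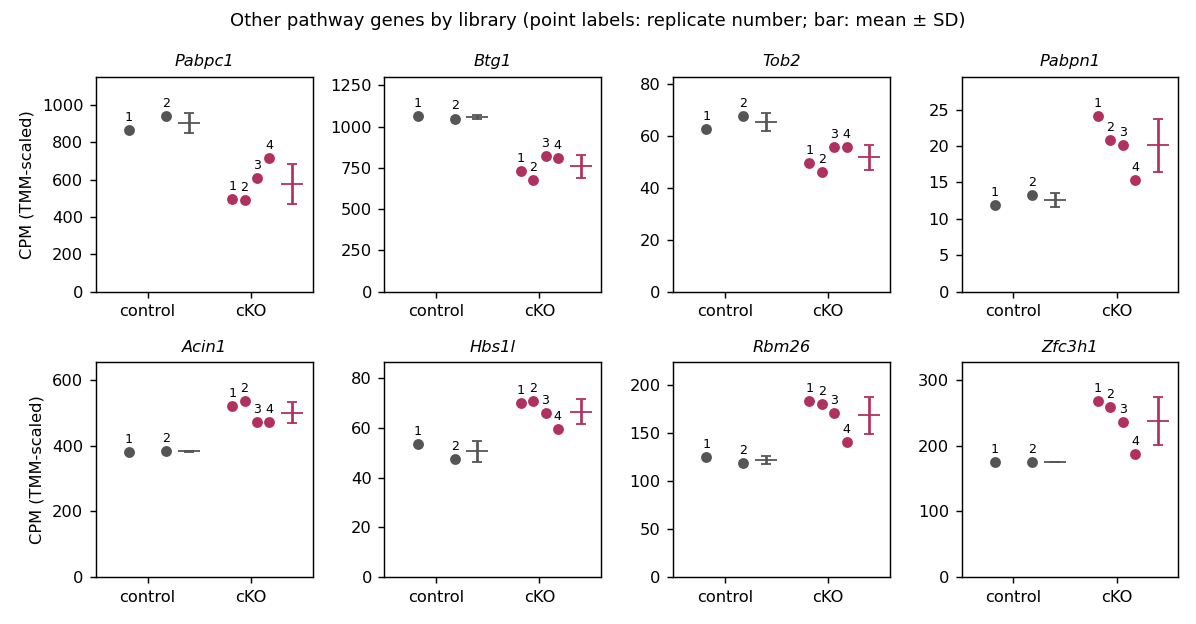
CPM (y axis, from 0) of 8 partner genes in the 2 control and 4 Cmtr1 cKO libraries, numbered by replicate, with the mean ± SD of each group beside the points. Pabpc1, Btg1 and Tob2 are lower in all 4 Cmtr1 cKO libraries and Pabpn1, Acin1, Hbs1l, Rbm26 and Zfc3h1 higher.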

How the data were processed

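Whole-number counts of reads per gene were deposited for 6 libraries of rRNA-depleted RNA, per the labels' protocols, as unnormalized counts in the layout of STAR's gene table. Per the submitters' processing notes the tools were STAR 2.5.2b and edgeR and the build GRCm38 (mm10); which annotation was counted is not stated there. The count column that matches the library's strand was taken. It held 18.7 to 22.7 times the reads of the other strand in 5 libraries and 5.57 times in Cmtr1 cKO 3, which stands apart: 15.2% of its reads were on the other strand, against 4.22% to 5.07% elsewhere. Over the 35 genes that share was 0.516% to 0.608% in all 6 libraries. Rows that name no gene held 52.1% to 62.0% of reads and were left out. Identifiers were matched without versions to GENCODE vM21 (46488 of 46983). Genes were filtered by filterByExpr, scaled by TMM and tested with edgeR 4.0.16 (R 4.3.3) by the quasi-likelihood test with genotype as the only term and Benjamini-Hochberg adjustment over 12748 genes. The SE is the log2 fold change divided by the square root of F, and CPM are TMM-scaled. The code was tested on simulated data. Alternatives were DESeq2 1.42.0, limma 3.58.1 with quality weights, other scalings, no filter, unstranded counts, a covariate, a replicate block and each library left out. The 35 genes, the partner lists and the alternatives were chosen with earlier results of these data known. Named with values in every library were the called genes, those with the highest and lowest fold change and level per length in each machine, and 3 pairs of paralogs, and of the partners the called genes, up to 5 a list.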

Additional observations from a re-analysis of the deposited data

Results flagged for a closer look

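Dis3 was flagged because 1 of its 4 Cmtr1 cKO libraries lay far from the rest. Cmtr1 cKO 1 had 49.0 CPM and the other Cmtr1 cKO libraries 44.1 to 44.9 CPM, so the gap to the nearest was 0.84 of the whole range, above Dixon's 95% critical value for 4 samples. The controls had 46.5 and 43.8 CPM. Chance flags about 1 in 20 groups, and 40 were examined.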

How the results depend on the processing

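The control group holds 2 libraries, so the fits without either rest on 1 control, and the calls they lose say little about the size of a change. Standard errors were 0.06 to 0.13 for the 35 genes, and log2 fold changes of 0.23 (Cnot6l), 0.19 (Exosc10) and 0.30 (Cnot3) were not called, with standard errors of 0.07, 0.06 and 0.12.

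With 1 library left out, all genes called ran from 39 to 1940 higher and 154 to 1940 lower, the 35 genes from 0 to 10 higher and 0 to 1 lower, NMD from 0 to 2 higher, deadenylation from 0 to 6 higher and 0 to 1 lower, exosome from 0 to 2 higher and the partners from 0 to 18 higher and 0 to 10 lower. Upper quartile scaling called 5 of the 35 higher (2 of deadenylation, 1 of the exosome), and DESeq2 and the fit without a filter called 5 each (3 of deadenylation); the last called 1167 of all genes higher. Quality weights called 1469 of all genes higher and 1701 lower, 9 of the 35 higher (5 of deadenylation, 2 of the exosome) and 1 lower (deadenylation), and 17 partners higher and 7 lower. With the outside-exon covariate 320 genes were called higher and 346 lower, of which 133 and 282 were also called without it. It called 1 NMD gene higher (Smg5, called in both) and 6 partners higher and 0 lower. Acin1, Gtpbp1 and Sec13 were among the partners called without it, and Eif4a3, Pym1 and Rnps1 were not. The cause of these shifts was not tested.

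The labels do not say whether the replicate numbers pair the libraries. Across 12748 genes the difference between controls 1 and 2 and that between Cmtr1 cKO 1 and 2 had a correlation of -0.0041. This value covers replicates 1 and 2 only and cannot exclude a pairing. The replicate block, which leaves Cmtr1 cKO 3 and 4 without a partner, called 2394 of all genes higher and 2448 lower, 14 of the 35 higher (4 NMD, 6 deadenylation, 4 exosome) and 1 lower (deadenylation), and 23 partners higher and 17 lower. It turned Exosc3 to -0.095, Exosc4 to -0.16 and Exosc9 to -0.12.

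The other signs that turned were of genes not called with genotype alone. Of these Pan3, Cnot3 and Cnot4 had 0.30, 0.30 and 0.22 there, and all 3 were called higher with quality weights and without Cmtr1 cKO 4. With the covariate Smg8 had 0.11, Cnot3 -0.051, Cnot4 -0.070, Cnot7 -0.20, Cnot9 0.20, Pan3 -0.00082, Dis3 -0.065 and Skiv2l -0.11. Cnot9 had 0.0019 with DESeq2 size factors, 0.014 with upper quartile scaling, 0.0018 in DESeq2 and 0.0034 without a filter. Quality weights gave Exosc1 0.0050, Exosc4 -0.033 and Exosc9 -0.020, and unstranded counts gave Exosc9 -0.085. With 1 library left out, values that crossed 0 were Upf1 from -0.080 to 0.038, Cnot7 from -0.073 to 0.16, Cnot9 from -0.053 to 0.053, Exosc1 from -0.048 to 0.037, Exosc2 from -0.039 to 0.19 and Exosc3 from -0.015 to 0.13. The others that crossed 0 were Exosc4 from -0.055 to 0.090, Exosc9 from -0.041 to 0.090, Dis3 from -0.020 to 0.068 and the Upf3a to Upf3b log2 ratio difference from -0.36 to 0.28.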
